A study of Mus musculus with 3 samples.

Results

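B cells were examined among the non-cardiomyocytes (non-CMs) of mouse hearts measured by droplet-based single-cell RNA sequencing, in which each transcript copy is counted once as a unique molecular identifier (UMI). A cell was taken as a B cell when it had at least 200 genes, at least 3 UMIs summed over Cd79a, Cd79b and Ms4a1, more of these than of the endothelial genes Pecam1, Cdh5, Kdr and Egfl7, of the fibroblast genes Col1a1, Col1a2 and Pdgfra, of the mural genes Myh11, Rgs5 and Vtn or of the macrophage genes C1qa, C1qb and C1qc, and no UMI of Cd3e or Cd3g. This rule found 88 B cells among 6915 cells kept. There were 32 in the healthy library, 0 in the adaptive hypertrophy library and 56 in the heart failure library. The cells were thus chosen by their UMIs of Cd79a, Cd79b and Ms4a1, and the levels of these genes are given as a description only.

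The mice were C57BL/6JJcl, and the hearts of 3 phases were compared, with 1 library per phase. The first was healthy (0 weeks), the second adaptive hypertrophy 2 weeks after transverse aortic constriction (TAC, a ligature that narrows the aortic arch and loads the left ventricle with pressure), and the third heart failure 12 weeks after TAC. TAC was performed in male mice of 8 weeks of age without any genetic change, and the age and sex of the healthy mice and the number of hearts behind each library were not given in the sources used here. Saline was injected into the right ventricle, with the left atrium cut open, until the lungs were white. How far this cleared the vessels of the heart was not stated. The atria were removed, red cells were lysed and the cells were collected on Percoll without sorting for a marker. With 1 library per phase, phase, time since surgery, age and library cannot be told apart, and all intervals below cover counting error only.

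B cells are lymphocytes that sense antigen through a surface immunoglobulin, whose signal is carried into the cell by CD79A and CD79B. They arise in bone marrow from precursors that use surrogate light chain genes, leave as transitional cells and mature mainly into follicular cells, which carry the IgE receptor CD23 (Fcer2a), or marginal zone cells, which carry much of the complement receptor CD21 (Cr2). After antigen they may pass through germinal centers and become memory or antibody-secreting plasma cells, and in the heart they are found mostly as resting mature cells within and along the microvessels. The immunoglobulin genes Ighm and Ighd, which also mark these steps, were not analysed here.

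The healthy B cells held 50598 UMIs, and the B cells at 12 weeks held 100408 UMIs. A healthy B cell had a median of 1425.5 UMIs (range, 1174 to 4250) and 654 genes, and a B cell at 12 weeks had a median of 1842.5 UMIs (range, 454 to 4681) and 777 genes. The libraries reached down to different depths, since the shallowest cell kept had 1153 UMIs in the healthy library, 577 at 2 weeks and 421 at 12 weeks. As a result, 21 of 56 B cells at 12 weeks were shallower than any healthy cell, 9 had between 1153 and 2000 UMIs and 26 had 2000 or more, whereas 29 of 32 healthy B cells had fewer than 2000. Mitochondrial genes made up a median of 3.05% of the UMIs of a healthy B cell and 3.19% at 12 weeks, and 4 B cells at 12 weeks were above 10%. The libraries shared 5 cell barcodes between 0 and 2 weeks, 1 between 0 and 12 weeks and 3 between 2 and 12 weeks, and no B cell had a shared barcode.

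The B cell label was checked with genes that the rule did not use. Ly6d, a surface antigen of the B lineage, stood at 2154 CPM (UMIs per 1000000 UMIs) in the 32 healthy B cells and at 4.58 CPM in the other cells of that library. At 12 weeks Ly6d was at 1703 CPM in B cells and 17.99 CPM in other cells. Pax5, the transcription factor that holds B cell identity, was at 178 CPM against 0.41 CPM in the healthy library and at 110 CPM against 8.68 CPM at 12 weeks. Fcmr, the receptor for IgM, was at 672 CPM against 1.88 CPM and at 966 CPM against 14.9 CPM. Ebf1, which the other cells of the heart also expressed, was at 1798 CPM against 376 CPM in the healthy library. All 12 genes of the B cell identity list, 3 of them in the gate, were higher in the gated cells than in the rest of each library, and the label matched its markers.

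The gate genes were left out of the next ranking. Among the other genes with at least 50 UMIs in the healthy B cells, Ly6d led the ratio over other cells. It was followed by the tetraspanin gene Cd37 (ratio 45.8), the leukocyte antigen gene Cd52 (7.94), the invariant chain gene Cd74 (4.96), Ebf1 (4.78) and Foxp1 (4.70). At 12 weeks, in the same ranking, Ly6d was followed by Fcmr (64.9), the class II accessory gene H2-DMb2 (58.0), the B cell scaffold gene Bank1 (45.2) and the chemokine receptor gene Ccr7 (29.9). In the healthy library 133 of 630 genes (21.1%) were at least 2-fold higher in B cells than in the other cells. These ratios describe the chosen cells and test nothing.

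Transcripts of other cell types were counted in the B cells, where the rule itself limited those of 13 genes on the endothelial, fibroblast, mural and macrophage lists. The 5 T cell genes measured (Cd3e, Cd3g, Cd3d, Cd4 and Cd8a) had 0 UMIs in healthy B cells and 1 UMI at 12 weeks, with Cd3e and Cd3g held at 0 by the rule. The macrophage list of 6 genes summed to 14 UMIs (277 CPM, against 6981 CPM in other cells) in healthy B cells and to 15 UMIs (149 CPM, against 3449 CPM) at 12 weeks. The endothelial list of 6 genes was at 494 CPM and 488 CPM, and the mural list of 5 genes at 158 CPM and 59.8 CPM. The fibroblast list was at 711 CPM, with UMIs of 6 of 6 genes, in healthy B cells and at 1105 CPM, with UMIs of 5 of 6 genes and Pdgfra at 0, at 12 weeks. Its gene Gsn went from 375.5 CPM (19 UMIs) to 707 CPM (71 UMIs), and the part of fibroblast RNA in the results was not tested. The neutrophil list had 0 and 6 UMIs in B cells, the erythroid list 1 and 6, the cardiomyocyte list 1 and 0, and the NK cell list none. Pf4 and Ppbp, genes of platelets, had 3 UMIs together in healthy B cells and 20 UMIs at 12 weeks.

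The share of B cells differed between the libraries. In the healthy library 0.822% of cells were B cells (32 of 3892, exact 95% interval, 0.563% to 1.16%). None of 2231 cells was a B cell at 2 weeks. A count of 0 still leaves room for 0.134% by a limit of 3 counts, and the exact upper limit was 0.165%. At 12 weeks, B cells made up 7.07% (56 of 792, 5.39% to 9.08%). The 12-week share was 8.60 times the healthy share (5.47 to 13.7), and these intervals did not overlap.

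**Figure D1:**
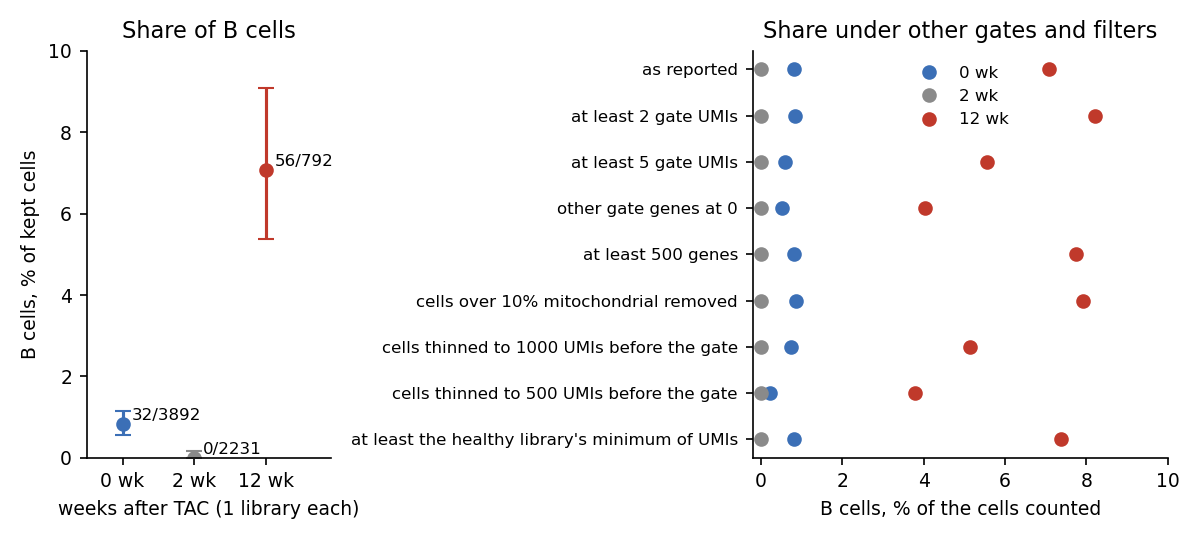
Left, B cells as a percentage of kept cells by library, with the exact 95% binomial interval and the counts, and right, the same percentage under other gates and filters. The 12-week library stays between 3.78% and 8.21%, the healthy library between 0.231% and 0.866% and the 2-week library at 0 in every setting drawn.

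In whole libraries, with no gate, the genes that chose the cells had most UMIs per library total in the 12-week library and fewest at 2 weeks, which largely restates the gate. Cd79a had 189 UMIs at 0 weeks, 7 at 2 weeks and 347 at 12 weeks, or 15.4, 1.57 and 203 CPM. Ms4a1, which encodes CD20, had 61, 1 and 105 UMIs, or 4.96, 0.224 and 61.3 CPM. Ly6d, which the rule did not use, had 165, 2 and 200 UMIs, or 13.4, 0.448 and 117 CPM, and 66.1% and 85.5% of its UMIs at 0 and 12 weeks were in the gated cells. Fcer2a and Mzb1 had no UMI at all at 2 weeks. The 2-week library had the fewest UMIs of each of these genes, although it held 4465929 UMIs, more than the 1712728 at 12 weeks. The gated B cells held 70.4% of the Cd79a UMIs of the healthy library and 87.0% of those at 12 weeks.

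A share of a library depends on the other cells in it. Set against macrophage-gated cells, there were 0.0377 B cells per macrophage in the healthy library (32 to 849), 0 at 2 weeks (0 to 100) and 1.17 at 12 weeks (56 to 48, 0.779 to 1.75). Set against endothelial-gated cells, there were 0.0305, 0 and 0.229 B cells per endothelial cell, from 1050, 1551 and 245 endothelial cells. With either denominator the 12-week library had the most B cells. The 2-week library had only 100 macrophage-gated cells, and 0 of 100 leaves an upper limit of 0.0376 per macrophage, just under the healthy value.

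Transcripts of some other blood cells were also highest at 12 weeks. In the cells that were not B cells, the T cell list was at 6.62 CPM at 0 weeks, 0.896 CPM at 2 weeks and 121 CPM at 12 weeks, and 8, 1 and 17 cells had at least 3 UMIs of it. The neutrophil list (S100a8, S100a9 and Retnlg) was at 440, 230 and 2959 CPM, and 4, 8 and 14 cells had at least 3 UMIs of it. The erythroid list was at 321, 236 and 2137 CPM, although 6, 13 and 3 cells had at least 3 UMIs of it, and the platelet list was highest in the healthy library (743, 74.3 and 436 CPM). The part of these cells and of blood RNA in the B cell share was not tested.

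The depth of the cells bears on the gate. With only the cells that reached the 1153 UMIs of the shallowest healthy cell, the shares were 0.822% (32 of 3892), 0 (0 of 1445) and 7.37% (35 of 475). Thinning cells to 500 UMIs before the gate, with 51 shallower cells at 12 weeks left out, gave 9 B cells of 3892 in the healthy library and 28 of 741 at 12 weeks, or 0.231% and 3.78%. The order of the libraries stayed in each setting.

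**Figure D2:**
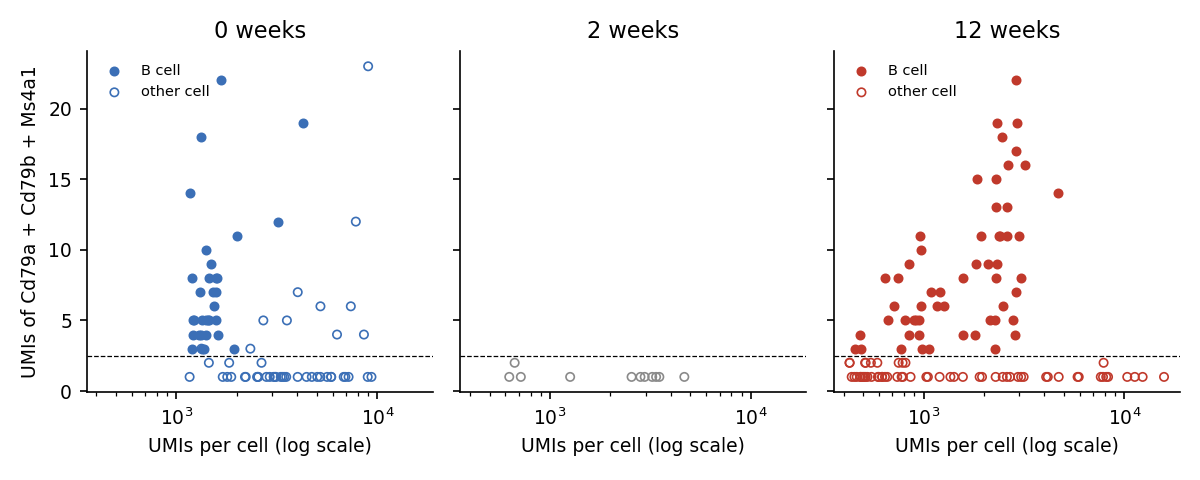
UMIs of Cd79a, Cd79b and Ms4a1 summed against all UMIs of the cell (log scale), for each cell with at least 1 such UMI, by library. Filled points are B cells, open points are cells under 3 gate UMIs (dashed line) or with a T cell gene or as many UMIs of another cell type, and no point at 2 weeks is filled.

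The gate sum had a median of 5.5 UMIs in healthy B cells and 7.5 at 12 weeks, with a range of 3 to 22 in both. Just inside the threshold, 4 healthy cells and 6 cells at 12 weeks had exactly 3 gate UMIs. Just outside it, 1 healthy cell and 9 cells at 12 weeks had exactly 2 and met the other conditions, and those 9 cells had a median of 547 UMIs. In the healthy library 43 cells had at least 3 gate UMIs and 11 of them were left out for as many or more UMIs of another cell type, mostly endothelial (6 cells) or mural (3 cells). These 11 cells had a median of 5209 UMIs, well above the 1425.5 UMIs of the B cells kept. At 12 weeks none of the 56 cells with at least 3 gate UMIs was left out.

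The maturation and subset genes of the rule that were measured had no detectable difference between healthy and 12-week B cells. Their intervals all included 1 and leave room for sizeable changes. Fcer2a (chromosome 8, 3681737 to 3694175, GRCm38) encodes CD23 of follicular B cells. It had 18 UMIs in the healthy B cells and 41 at 12 weeks, or 356 and 408 CPM, with a ratio of 12 weeks to 0 of 1.15 (95% interval, 0.64 to 2.12). A UMI of Fcer2a was found in 14 of 32 healthy B cells (43.8%) and in 28 of 56 at 12 weeks (50.0%). In endothelial-gated cells, which should lack it, the share was 0.190% at 0 weeks and 1.22% at 12 weeks. The Fcer2a shares of B cells in the 2 libraries overlapped in their intervals (26.4% to 62.3% and 36.3% to 63.7%).

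Cr2 (chromosome 1, 195136811 to 195176716) encodes CD21, the complement receptor that is most abundant on marginal zone cells. It had 3 UMIs in 3 of 32 healthy B cells and 8 UMIs in 8 of 56 B cells at 12 weeks, or 59.3 and 79.7 CPM. The ratio of 1.34 had an interval of 0.32 to 7.86, so a difference was not detectable at this depth, and as a mean over cells of UMIs per 10000 the ratio was 0.84, on the other side of 1. Fcer2a and Cr2 were found in the same cell in 2 healthy B cells and in 3 at 12 weeks, whereas 12 and 25 cells had Fcer2a alone and 1 and 5 cells had Cr2 alone.

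Ly6d (chromosome 15, 74762056 to 74763620) had 109 UMIs in 25 of 32 healthy B cells and 171 UMIs in 48 of 56 at 12 weeks. Its level was 2154 CPM and 1703 CPM, a ratio of 0.79 with an interval of 0.62 to 1.01 that included 1. Per 10000 UMIs of a cell, Ly6d had a median of 10.7 (0 to 78.5) in healthy B cells and 13.5 (0 to 82.0) at 12 weeks, so the median of the cells and the summed level pointed in opposite directions.

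Mzb1, a chaperone in the endoplasmic reticulum that helps immunoglobulin assembly and is abundant in marginal zone, B1 and plasma cells, had 31 UMIs in 17 of 32 healthy B cells and 43 UMIs in 27 of 56 at 12 weeks. The level was 613 CPM and 428 CPM, a ratio of 0.70 (0.43 to 1.15). No B cell had more than 6 UMIs of it in either library. After the B cells with at least 1000 UMIs were thinned to 1000, which kept 32 of 32 healthy cells and 37 of 56 at 12 weeks and left out 19 shallower ones, Mzb1 was found in 34.4% of healthy B cells and 32.4% at 12 weeks, and Fcer2a in 28.1% and 37.8%. Of the maturation genes measured, Fcer2a, Ly6d and Mzb1 passed a level filter. It asked that the mean of the healthy and 12-week levels be worth at least 10 UMIs at the total of the healthy B cells. The median ratio of these 3 genes was 0.79, and 0 of the 3 were 2-fold apart. Of all 566 genes tested, 7.24% were at least 2-fold higher at 12 weeks and 3.18% at least 2-fold lower.

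**Figure D3:**
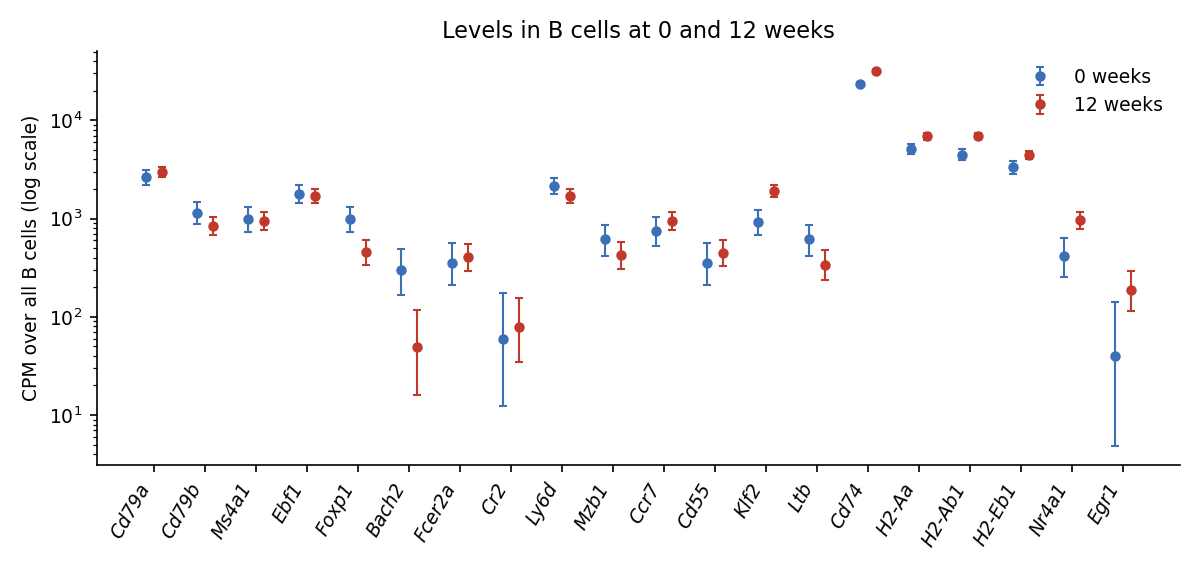
Levels over all B cells of the healthy (blue) and 12-week (red) libraries in CPM (log scale), with exact 95% Poisson intervals. The intervals overlap for Fcer2a, Cr2, Ly6d and Mzb1, while Klf2, Cd74, H2-Aa, H2-Ab1, H2-Eb1 and Nr4a1 are higher and Foxp1 and Bach2 are lower at 12 weeks without overlap.

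Many genes of earlier and later stages had no UMI in the B cells, and 4 of 9 plasma cell genes had one in healthy B cells and 6 of 9 at 12 weeks. Of 12 precursor and transitional genes, 8 had no UMI in any B cell. These were the surrogate light chain genes Vpreb1, Vpreb2 and Igll1, the recombination genes Rag1, Rag2 and Dntt, and Il7r and Lef1. At these depths 0 UMIs allows up to 59.3 CPM in healthy B cells and up to 29.9 CPM at 12 weeks. Vpreb3, which stays on in later B cells, had 8 UMIs in 8 healthy cells and 13 UMIs in 9 cells at 12 weeks, and Cd93, a gene of transitional B cells, had 2 and 3 UMIs. Cd24a had 15 and 35 UMIs (ratio 1.18, 0.63 to 2.32).

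The germinal center genes Bcl6, Fas and S1pr2 and the proliferation gene Mki67 had no UMI in the B cells of either library. Top2a, another proliferation gene, had 1 UMI in a healthy B cell and 2 UMIs in a cell at 12 weeks. Of the plasma cell genes, Jchain, Prdm1 and Tnfrsf17 had no UMI, Sdc1 had 0 and 3 UMIs, and Xbp1 had 1 and 9 UMIs (ratio 4.54, 0.63 to 199). Sec11c, a signal peptidase subunit, had 13 and 15 UMIs (ratio 0.58, 0.26 to 1.33). Of the B1 cell list, Cd5, Spn, Zbtb32, Itgam and Ctla4 had no UMI, and Cd9, which is shared with marginal zone cells, had 8 and 24 UMIs (ratio 1.51, 0.66 to 3.89). Only 1 precursor gene (Cd24a), 2 plasma cell genes (Mzb1 and Sec11c), 1 B1 cell gene (Cd9) and 0 of 9 germinal center and memory genes passed the level filter. None of those that passed was 2-fold apart, where 7.24% of all genes tested were at least 2-fold higher and 3.18% at least 2-fold lower. The genes that passed are too few to be read against those shares.

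Genes for homing to lymphoid follicles were present at both times. Ccr7, the receptor that guides lymphocytes to lymph nodes, had 38 UMIs in 21 of 32 healthy B cells and 95 UMIs in 37 of 56 at 12 weeks (751 and 946 CPM, ratio 1.26, 0.86 to 1.89). Ccr7 and Fcer2a were found together in 10 healthy B cells and in 19 at 12 weeks. Cd55, which encodes a complement regulator, was at 356 and 448 CPM (ratio 1.26, 0.71 to 2.31). Cxcr5, the receptor for entry into follicles, had 5 and 8 UMIs. None of these intervals left out 1.

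Klf2 (chromosome 8, 72319033 to 72321656), a transcription factor of lymphocyte rest and recirculation, was the follicular and marginal zone list gene that stood apart. It had 47 UMIs in 21 of 32 healthy B cells and 193 UMIs in 46 of 56 at 12 weeks, or 929 and 1922 CPM. Of these UMIs, 12 were in 1 healthy cell and 31 in 1 cell at 12 weeks. The ratio was 2.07 (1.50 to 2.91). Per 10000 UMIs of a cell the median was 6.69 (0 to 62.2) in healthy B cells and 10.4 (0 to 108) at 12 weeks, so the cells of the libraries overlapped widely. In endothelial-gated cells of the same libraries the ratio was 0.78 (0.74 to 0.82) and in macrophage-gated cells 0.72 (0.56 to 0.90), and the difference between the kinds of cell was not tested. Of 12 genes measured on that list, 6 passed the level filter, with a median ratio of 1.29 beside 0.980 over all genes tested. Klf2 was the only one past 2-fold, where 7.24% of all genes tested were at least 2-fold higher. The Klf2 ratio fell below 2 with at least 2 gate UMIs (1.91), as a mean over cells (1.93), without mitochondrial and ribosomal protein genes in the total (1.96) and without the B cell with most UMIs in each library (1.99). All 6 ratios lay above 1, beside 49.5% of the ratios of all genes tested, and 5 of the 6 intervals included 1.

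The comparison of 12 weeks with 0 covered 566 genes that passed the level filter. The filter took the mean of the healthy and 12-week levels, scaled to the total of the healthy B cells, the group with fewer UMIs. A gene could thus pass mainly through its 12-week level, as Gm10116 (0 and 41 UMIs), Gm10020 (2 and 51 UMIs) and Dusp1 (7 and 31 UMIs) did. At least 2-fold higher at 12 weeks were 41 genes (7.24%), and at least 2-fold lower were 18 genes (3.18%), so that 69.5% of the genes past 2-fold were higher. When the total of each group was taken without mitochondrial and ribosomal protein genes, 32 were higher and 22 lower, and the share higher was 59.3%. This other scaling moved the median ratio of all tested genes from 0.980 to 0.929.

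**Figure D4:**
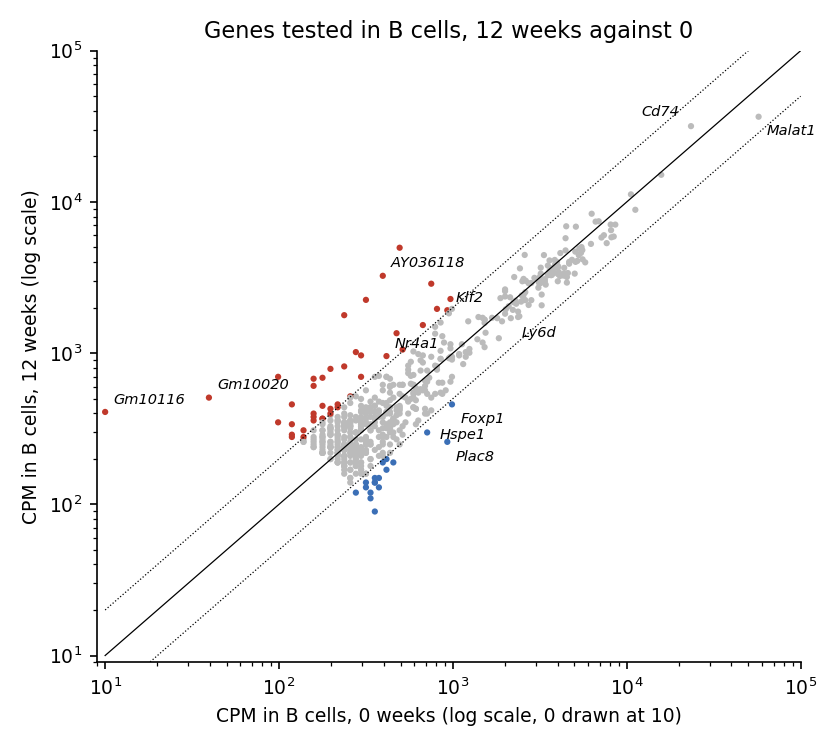
CPM in B cells at 12 weeks against CPM at 0 weeks for the 566 genes tested (log axes), with the line of equality and dotted lines at 2-fold, red for genes at least 2-fold higher at 12 weeks and blue for genes at least 2-fold lower. AY036118, Gm10116 and Gm10020 lie well above the upper dotted line, and Plac8, Foxp1 and Hspe1 lie below the lower dotted line.

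The antigen receptor genes had no detectable difference. Of the 20 receptor and co-receptor genes, 20 had a UMI at each time, 11 passed the level filter, and none was 2-fold apart. Over all genes tested 7.24% were at least 2-fold higher at 12 weeks and 3.18% at least 2-fold lower, and 0 of 11 is near those shares. The median ratio of the 11 genes was 1.14, beside 0.980 over all genes tested, and their ratios ran from 0.74 to 1.74 with no interval that left out 1. Cd79a, which helped to choose the cells, was at 2629 and 3008 CPM, and Cd79b at 1146 and 847 CPM. Bank1, a scaffold of receptor signaling, was at 494 and 617 CPM (1.25, 0.77 to 2.08), and Siglecg, an inhibitory receptor, at 296 and 239 CPM (0.81, 0.41 to 1.65).

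Among the B lineage transcription factors, Foxp1 and Bach2 were lower at 12 weeks. Foxp1 (chromosome 6, 98925338 to 99522721), needed for B cell development, had 50 UMIs in 23 of 32 healthy B cells and 46 UMIs in 30 of 56 at 12 weeks, or 988 and 458 CPM. The ratio was 0.46 (0.30 to 0.71). In endothelial-gated cells the same ratio was 1.18 (0.99 to 1.40) and in macrophage-gated cells 0.93 (0.58 to 1.43). Bach2 (chromosome 4, 32238804 to 32586108), a repressor that holds back plasma cell formation, had 15 UMIs in 11 healthy B cells and 5 UMIs in 5 cells at 12 weeks, or 296 and 49.8 CPM. Its ratio was 0.17 (0.05 to 0.49), but Bach2 was below the level filter and is not counted among the 18 genes. Ebf1, the factor that starts the B cell program, was at 1798 and 1703 CPM (0.95, 0.73 to 1.24), Mef2c at 1186 and 946 CPM (0.80, 0.57 to 1.12) and Pou2af1, a co-activator of octamer factors, at 336 and 249 CPM (0.74, 0.38 to 1.46). Of the 17 factors, 5 passed the filter. Their median ratio was 0.74, beside 0.980 over all genes tested, and Foxp1 was past 2-fold, where 3.18% of all genes were at least 2-fold lower. The Foxp1 ratio fell short of 2-fold with at least 2 gate UMIs (0.54) and as a mean over cells (0.55).

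Class II major histocompatibility complex (MHC) genes, by which B cells present antigen to helper T cells, were higher at 12 weeks. Cd74, the invariant chain, had 1185 UMIs in 32 of 32 healthy B cells and 3185 UMIs in 56 of 56 at 12 weeks, or 23420 and 31721 CPM. The ratio was 1.35 (1.27 to 1.45). The chains of the presenting molecules had ratios of 1.35 (H2-Aa, 1.16 to 1.56), 1.54 (H2-Ab1, 1.32 to 1.80) and 1.33 (H2-Eb1, 1.11 to 1.60). Per 10000 UMIs of a cell, H2-Ab1 had a median of 37.6 (0 to 94.3) in healthy B cells and 67.4 (0 to 295) at 12 weeks. The peptide exchange genes H2-DMa (1.87, 1.02 to 3.66) and H2-DMb2 (1.49, 1.05 to 2.15) were also higher, whereas H2-Oa was at 1.14 and H2-Ob at 1.04.

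Of the 10 class II genes, 8 passed the level filter with a median ratio of 1.35, 6 of them had intervals above 1, and 0 were past 2-fold. Over all genes tested the median ratio was 0.980, 10.6% had intervals above 1 and 7.24% were at least 2-fold higher. In macrophage-gated cells, which also present antigen, Cd74 had a ratio of 1.48 (1.42 to 1.53) and H2-Ab1 of 1.47 (1.37 to 1.57). In endothelial-gated cells they were 0.83 (0.63 to 1.07) and 1.08 (0.74 to 1.54). Class I genes, which were picked after their values were seen, were higher in B cells as well, with ratios of 1.89 for H2-K1 (1.33 to 2.75), 1.41 for H2-D1 (1.14 to 1.77) and 1.50 for their partner B2m (1.22 to 1.85). In endothelial-gated cells these ratios were 1.53 (1.38 to 1.69), 1.45 (1.36 to 1.54) and 1.42 (1.35 to 1.50). In macrophage-gated cells they were 1.48 (1.22 to 1.79), 1.11 (0.99 to 1.25) and 0.93 (0.83 to 1.03).

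Of the activation and immediate early genes, Nr4a1 and Dusp1 were past 2-fold. Nr4a1, which antigen receptor signals induce, had 21 UMIs in 12 of 32 healthy B cells and 96 UMIs in 38 of 56 at 12 weeks, or 415 and 956 CPM (ratio 2.30, 1.43 to 3.89). In macrophage-gated cells Nr4a1 had a ratio of 2.37 (1.85 to 3.00) and in endothelial-gated cells 1.10 (0.92 to 1.30). Dusp1, a phosphatase, had 7 and 31 UMIs, and its interval included 1 (2.23, 0.96 to 6.00). The Dusp1 ratio fell short of 2 with at least 5 gate UMIs (1.99), with the other gate genes at 0 (1.92) and without the B cell with most UMIs in each library (1.87). Egr1 had 2 and 19 UMIs (4.79, 1.15 to 42.4) and was below the level filter. Ier2 was at 415 and 697 CPM (1.68, 1.02 to 2.88). Fos (1.27), Junb (1.09) and Jun (0.64) had intervals that included 1, as did the activation markers Cd83 (1.12) and Cd69 (1.06). Of 14 genes, 9 passed the filter, with a median ratio of 1.27, 8 ratios above 1 and 2 genes past 2-fold, beside 0.980, 49.5% and 7.24% over all genes tested.

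Survival, homing and cytokine genes were sparse. Ltb, which encodes lymphotoxin beta, a signal for lymphoid tissue, had 31 UMIs in 16 of 32 healthy B cells and 34 UMIs in 19 of 56 at 12 weeks (613 and 339 CPM, ratio 0.55, 0.33 to 0.93). Tgfb1 was at 237 and 339 CPM (1.43, 0.72 to 3.03). Tnfrsf13c, the receptor for the survival factor BAFF, had 4 and 9 UMIs. Lta, Tnf and Il10 had no UMI in the B cells of either library, and Il6 had 0 and 1 UMI. Of 19 genes, 4 passed the filter, with a median ratio of 1.29 beside 0.980 over all genes tested, and none was past 2-fold. Over all genes tested 7.24% were at least 2-fold higher at 12 weeks and 3.18% at least 2-fold lower, so 0 of 4 is near those shares.

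Interferon response genes showed no common direction. Of 11 genes, 3 passed the filter. Ly6e was at 1996 and 2639 CPM (1.32, 1.05 to 1.68), Ly6a at 257 and 239 CPM (0.93, 0.46 to 1.99) and Ifi27l2a at 514 and 329 CPM (0.64, 0.37 to 1.11). Isg15 had 1 UMI and 0 UMIs, and Ifit2 and Ifit3 had none in B cells.

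The genes that led the 12-week side were higher in other cells of that library too. AY036118, a noncoding RNA gene, had 20 UMIs in healthy B cells and 326 at 12 weeks (395 and 3247 CPM), a ratio of 8.21 (5.23 to 13.6). Its ratio was 5.12 in endothelial-gated cells and 8.85 in macrophage-gated cells. Gm10076 had ratios of 7.12, 10.3 and 7.92 in B cells and these cells, Gm10073 of 7.52, 8.56 and 5.87, and Gm10020 of 12.9, 14.4 and 21.2. Gm10116 had no UMI in healthy B cells and 41 at 12 weeks, at least 6.89-fold higher against a floor of 3 counts for the healthy group (exact lower limit of the ratio, 5.35), and it passed the level filter only through its 12-week level. Serinc3 (3.67, 2.09 to 6.95) was at 3.22 and 2.13 in the other kinds of cell. Several of these genes have near-identical copies in the genome, and how reads were divided among copies is uncertain. The labels name the same library chemistry, software and genome build for the 3 libraries, and the version of the gene annotation was not given in the sources used here. Whether the libraries differed in it was not tested, and these genes are among the 41 higher ones.

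Over the 41 higher genes, the median ratio was 2.52 in B cells, 2.81 in endothelial-gated cells and 2.37 in macrophage-gated cells. The medians over all 566 genes tested were 0.980, 0.955 and 0.932, and the 41 genes were chosen by their ratio in B cells. Of the 41, 12 had a Gm symbol, 8 were pseudogenes, 2 were other ribosomal protein genes and 1 was mitochondrial, where 16, 11, 83 and 11 of the 566 were. These classes overlap, and 19 of the 41 (46.3%) and 116 of the 566 (20.5%) fell in at least 1 of them. Hmha1, a minor histocompatibility antigen gene of blood cells, had 10 and 79 UMIs in B cells (3.98, 2.05 to 8.62), and its ratio was 1.92 in endothelial-gated cells, from 8 and 2 UMIs, and 1.44 in macrophage-gated cells. Comparisons in the 3 kinds of cell share their libraries.

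**Figure D5:**
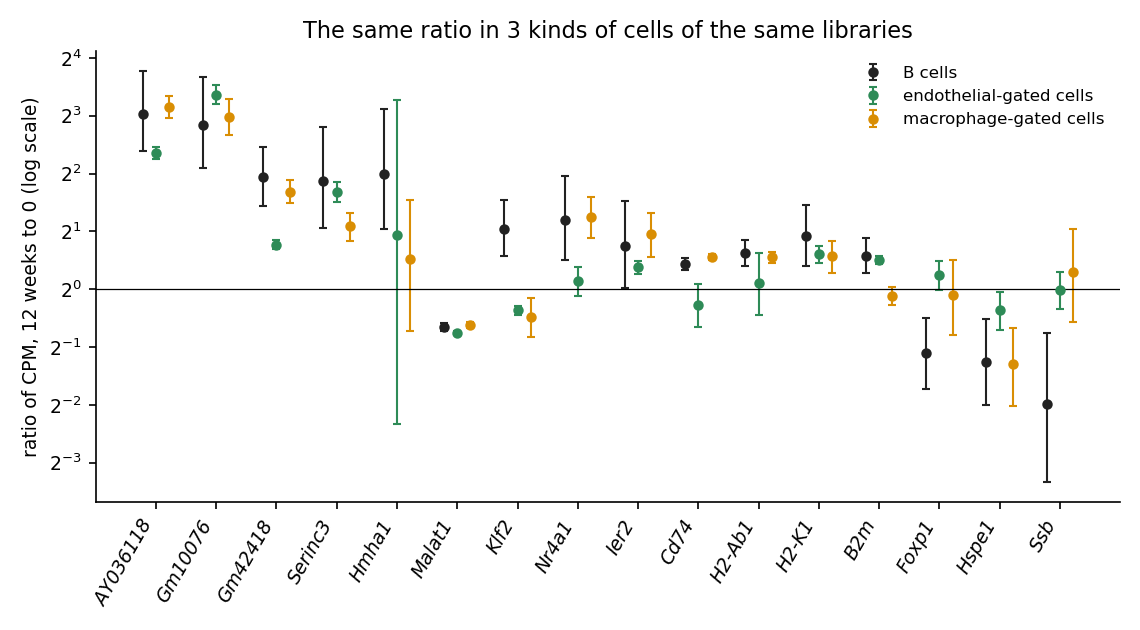
Ratio of CPM at 12 weeks to 0 (log scale) in B cells, endothelial-gated cells and macrophage-gated cells of the same libraries, with exact 95% intervals. AY036118, Gm10076, Serinc3 and Malat1 lie on 1 side of 1 in all 3, Klf2 is above 1 in B cells only, and Foxp1 and Ssb are below 1 in B cells with intervals that include 1 in the other cells.

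The 18 lower genes, chosen by their ratio in B cells, had a median ratio of 0.409 in B cells, 0.824 in endothelial-gated cells and 0.721 in macrophage-gated cells, beside the 0.980, 0.955 and 0.932 of all genes tested. Plac8 (chromosome 5, 100553725 to 100572245) had 47 UMIs in 15 of 32 healthy B cells and 26 UMIs in 14 of 56 at 12 weeks (929 and 259 CPM, ratio 0.28, 0.17 to 0.46), but 24 of the 47 UMIs were in 1 healthy cell. Without the cell with most Plac8 in each library the ratio was 0.47, and without the cell with most UMIs in each library it was 0.55, no longer past 2-fold. The healthy cell left out was the same in both settings. Ssb, an RNA-binding protein, went from 18 to 9 UMIs (0.25, 0.10 to 0.59), with ratios of 0.99 and 1.23 in endothelial-gated and macrophage-gated cells. Hspe1, the mitochondrial cochaperonin, had a ratio of 0.42 (0.25 to 0.70), beside 0.78 and 0.41. Rhoh, which encodes a small GTPase of blood cells, had a ratio of 0.34 (0.16 to 0.74), and the splicing factor gene Sf3b2 of 0.36 (0.16 to 0.79). Zcchc11 was at 0.33 (0.14 to 0.74), Tomm20, which encodes a mitochondrial import receptor, at 0.41 (0.20 to 0.81) and Gm8369 at 0.42 (0.21 to 0.80).

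Malat1, a nuclear long noncoding RNA, had an interval far from 1 although it was not 2-fold apart. It had 2901 UMIs in healthy B cells and 3676 at 12 weeks, or 57334 and 36611 CPM (ratio 0.64, 0.61 to 0.67). Per 10000 UMIs of a cell, the median was 579 (337 to 821) in healthy B cells and 369 (83.7 to 1652) at 12 weeks. The ratio was 0.59 in endothelial-gated cells and 0.65 in macrophage-gated cells, so Malat1 was lower in all 3 kinds of cell of the 12-week library.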

How the data were processed

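The authors injected saline into the right ventricle, minced and digested the ventricles, collected cells on Percoll and made droplet libraries. They counted UMIs with Cell Ranger 2.0.0 on mm10, per the submitters' processing notes, and the deposited values are raw counts of UMIs per gene and cell, without normalization, over 27998 gene rows per library. From these, cells with at least 200 genes were kept. The B cell gate, the members and all gene lists were chosen with earlier results of these data known. No doublet caller was run. The gate, and a gate with all other gate genes at 0, stood in for it.

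Counts were summed over the B cells of each library and divided by their total (CPM). Levels have exact Poisson intervals, ratios exact conditional binomial intervals and shares exact Clopper-Pearson intervals, all at 95%. A count of 0 was given the limit of 3 counts. No p-values were given, since each phase has 1 library and its cells do not replicate it. Genes were compared where the mean of their levels in both groups was worth at least 10 UMIs at the total of the smaller group. Endothelial-gated and macrophage-gated cells of the same libraries gave values to set beside. Named genes were all list genes and, each way, the 10 genes past the filter whose interval lay farthest from 1, without mitochondrial and ribosomal protein genes. The 20 genes outside the gate that led over other cells could be named too. For thinning, UMIs were drawn to 500 or 1000 per cell with a fixed seed. Immunoglobulin genes and Trbc2, 13 list genes in all, were not analysed here, so the planned light chain and isotype classes were not computed. A few other genes of the lists are not reported here. Of the gene identifiers, 27645 matched the GENCODE annotation of GRCm38, the source of coordinates. The interval code was run on summed counts drawn from the Poisson distribution that the intervals assume. Those draws held no spread between cells, so they cannot show whether the intervals cover it. Python 3.11.15, numpy 2.4.6, scipy 1.17.1, pandas 2.3.3 and matplotlib 3.10.9 were used.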

Additional observations from a re-analysis of the deposited data

Results flagged for a closer look

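Klf2 stood out because B cells and the other cells of the same libraries moved in opposite directions. The ratio of 12 weeks to 0 was 2.07 (1.50 to 2.91) in B cells, 0.78 (0.74 to 0.82) in endothelial-gated cells and 0.72 (0.56 to 0.90) in macrophage-gated cells. The difference between the kinds of cell was not tested, since each phase has 1 library. The Klf2 ratio in B cells lay between 1.91 and 3.03 over the 10 alternatives run for it.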

How the results depend on the processing

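Of the values that answer a comparison, 81 alternatives stayed within the interval of the reported value (counts, within 1.5 times), and 13 moved. No ratio whose interval left out 1 changed direction, and the Cr2 ratio went from 1.34 to 0.84 as a mean over cells. Requiring all other gate genes at 0 gave B cell shares of 0.514% (healthy) and 4.04% (12 weeks) and 9 genes lower at 12 weeks of 330 tested (2.73%, beside 3.18%). Thinning cells before the gate gave 5.15% at 12 weeks at 1000 UMIs, with 268 shallower cells left out, and 0.231%, 3.78% and a ratio of shares of 16.3 at 500 UMIs. A gate of at least 5 UMIs gave a Ly6d ratio of 0.61 and 11 lower genes of 411 (2.68%). A level worth at least 5 UMIs gave 126 higher and 82 lower genes of 1275, and one worth at least 20 UMIs gave 20 and 3 of 280, where fewer genes were tested. The causes of the other moves were not tested. The share at 2 weeks was 0 in all alternatives run. For single genes and shares of cells with a UMI, 293 alternatives stayed and 23 moved. The limit to cells of at least 1153 UMIs, and leaving out the B cell with most UMIs in each library, were chosen after seeing the data. Without that cell, 37 genes were higher and 19 lower.

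The comparison of 2 weeks with 0 was not run, because no B cell was found at 2 weeks, and the light chain and isotype alternatives were not run, because those genes were not analysed here. No paired analysis was possible because each phase has 1 library and the labels give no replicate numbers. With 32 and 56 B cells, counts under about 10 UMIs leave intervals of several fold.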
